A study of Homo sapiens with 12 samples.

Results

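The transcripts described here are those of 36 nuclear genes that encode subunits of the oxidative phosphorylation system. They were listed by name as members of the 5 respiratory complexes. All 36 were found by symbol among the 60617 gene IDs of the deposited count tables, and all 36 passed the filter on low counts in every comparison. The list holds 11 subunits of complex I, 4 of complex II, 6 of complex III, 9 of complex IV (NDUFA4 included) and 6 of complex V. RNA was sequenced from 769-P, a long-established cell line from a clear cell carcinoma of the human kidney, in 12 libraries that form 4 groups of 3. The groups are labelled siDRAIC, siDRAIC-NC, sihnRNPA2B1 and sihnRNPA2B1-NC. Each siRNA (small interfering RNA) is set here against the NC group that carries its name, taken as its control. The labels do not spell out NC, a dose or a time after transfection. All groups are the same cell line in the same medium, with no other genotype or treatment in the labels.

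Oxidative phosphorylation transfers electrons from NADH and succinate to oxygen through complexes I to IV in the inner mitochondrial membrane. The proton gradient that this builds drives ATP synthase, also called complex V. Mitochondrial DNA encodes some membrane subunits of complexes I, III, IV and V, while nuclear genes encode all of complex II and most subunits of the others, so both sets of transcripts are needed for the system. Clear cell renal carcinoma is known for low respiration and high glycolysis relative to the kidney tubule it arises from.

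Nuclear genes of this system are known for promoters with sites of NRF-1, of GABP (a factor of the ETS family, also called NRF-2) and of YY1. The RefSeq table of promoters (GRCh38.p14; 250 bases before to 50 after each gene start) held 29 of the 36 genes; ATP5F1B, ATP5F1D, COX6C, CYC1, NDUFA4, SDHC and UQCRB were not among them. Each window was searched on both strands for 3 exact cores that do not overlap each other in the sequences printed here. The ETS core CCGGAAG was in 10 of 29 windows (34.48%), against 10.67% of all 27305 windows. The YY1 core AAGATGG was in 8 of 29 (27.59%), against 6.061% of all windows. The NRF-1 core CGCATGCG was in 3 of 29 (10.34%), against 2.19%; with a G before and a C after it, the form counted first, it was in 1 of 29 (3.448%), against 1.359%. Any of the 3 was in 17 of 29 windows (58.62%), against 17.41%. The windows of these genes had a median GC content of 62.33%, against 58.33% for all windows. A match describes letters in the window and is not evidence of binding.

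Only some of the windows with matches are printed here. They are those with at least 2 matches in the printed stretch, and those with 1 match from genes whose levels changed in sihnRNPA2B1 libraries. The sequences below also include that of ATP5MC1, whose level changed there too but which holds no match. Each runs 5′ to 3′ on the gene's own strand, from 130 bases before to 30 after the gene start, with matches in capitals (an ETS core on the other strand reads CTTCCGG and a YY1 core CCATCTT). COX5B (chr2:97645932-97646091, plus strand), NDUFS3 (chr11:47578944-47579103, plus strand), NDUFS7 (chr19:1383777-1383936, plus strand), SDHB (chr1:17054003-17054162, minus strand) and SDHD (chr11:112086743-112086902, plus strand) hold 2 matches each: 2 ETS cores in COX5B and NDUFS3, an NRF-1 and a YY1 core in NDUFS7, an ETS and a YY1 core in SDHB, and an NRF-1 and an ETS core in SDHD. COX8A (chr11:63974490-63974649, plus strand) holds an ETS core, while UQCRC2 (chr16:21953231-21953390, plus strand) and ATP5PB (chr1:111449334-111449493, plus strand) hold a YY1 core. ATP5MC1 (chr17:48892657-48892816, plus strand), the gene with the lowest log2 fold change in both siRNA comparisons, holds none.
COX5B: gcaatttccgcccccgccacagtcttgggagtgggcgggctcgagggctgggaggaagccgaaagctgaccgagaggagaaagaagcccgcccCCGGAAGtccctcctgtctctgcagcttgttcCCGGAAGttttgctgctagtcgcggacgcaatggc
NDUFS3: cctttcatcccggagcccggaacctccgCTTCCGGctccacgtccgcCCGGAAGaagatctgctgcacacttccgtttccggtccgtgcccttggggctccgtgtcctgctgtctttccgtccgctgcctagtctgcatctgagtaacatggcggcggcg
NDUFS7: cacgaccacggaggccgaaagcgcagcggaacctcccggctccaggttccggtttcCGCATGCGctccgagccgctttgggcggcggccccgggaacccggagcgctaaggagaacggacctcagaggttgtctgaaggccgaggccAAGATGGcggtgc
SDHB: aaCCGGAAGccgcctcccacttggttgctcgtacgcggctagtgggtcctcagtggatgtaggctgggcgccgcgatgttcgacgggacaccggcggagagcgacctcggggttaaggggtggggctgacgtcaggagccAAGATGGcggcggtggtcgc
SDHD: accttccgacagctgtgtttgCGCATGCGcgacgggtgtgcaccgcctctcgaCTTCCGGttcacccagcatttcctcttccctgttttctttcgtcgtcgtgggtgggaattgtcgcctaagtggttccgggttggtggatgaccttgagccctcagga
COX8A: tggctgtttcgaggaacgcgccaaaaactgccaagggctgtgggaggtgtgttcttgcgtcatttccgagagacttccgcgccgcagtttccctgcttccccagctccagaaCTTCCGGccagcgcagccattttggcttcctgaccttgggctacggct
UQCRC2: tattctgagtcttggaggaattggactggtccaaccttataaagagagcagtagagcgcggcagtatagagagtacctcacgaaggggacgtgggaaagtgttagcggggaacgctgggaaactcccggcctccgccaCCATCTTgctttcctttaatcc
ATP5PB: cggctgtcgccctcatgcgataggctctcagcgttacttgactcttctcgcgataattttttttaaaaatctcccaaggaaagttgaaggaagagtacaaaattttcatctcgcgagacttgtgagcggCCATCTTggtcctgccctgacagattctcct
ATP5MC1: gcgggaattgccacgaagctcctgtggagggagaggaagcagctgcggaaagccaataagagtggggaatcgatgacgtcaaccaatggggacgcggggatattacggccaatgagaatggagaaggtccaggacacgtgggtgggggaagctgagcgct

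The libraries held 30798303 to 42760528 counts each. Levels are given as CPM, counts scaled to the total of the library. In what follows, ± beside a log2 fold change is its standard error. The labels do not say whether the 3 libraries of a group came from separate cultures, so p-values reflect the spread among these libraries and nothing wider. HNRNPA2B1, the target of its siRNA, had 291, 307 and 274 CPM in sihnRNPA2B1 libraries, against 428, 396 and 435 CPM in sihnRNPA2B1-NC libraries, a log2 fold change of -0.56 ± 0.05 (edgeR adjusted p = 2.16e-09). DRAIC, a long non-coding RNA, had 3, 6 and 0 counts in siDRAIC libraries and 2, 1 and 2 in siDRAIC-NC libraries, too few to check the siDRAIC label. Of the 8 renal epithelial markers, 6 passed the filter on low counts and 2 averaged below 1 CPM in every group. Their sum was above 1027 CPM in every library. The summed level of the 4 blood and immune markers (CD3E at 0 throughout) and of the 3 endothelial markers stayed at or below 1.18 CPM.

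Compared per length of transcript (CPM per kilobase, RPKM), ATP synthase led the list. ATP5F1B, the catalytic beta subunit, stood at 799, 854, 631 and 689 RPKM on average in siDRAIC, siDRAIC-NC, sihnRNPA2B1 and sihnRNPA2B1-NC libraries. It gave 26.3%, 27.1%, 28.2% and 29.1% of the summed CPM of the 36 genes in those 4 groups. COX4I1, a subunit of cytochrome c oxidase, came next at 517, 536, 339.6 and 346 RPKM. ATP5F1A, the alpha subunit of ATP synthase, and CYC1, cytochrome c1 of complex III, followed, and their order was not the same in every group: ATP5F1A had 337 and CYC1 268 RPKM in siDRAIC libraries, against 328 and 347 RPKM in siDRAIC-NC libraries. Over all 12 libraries 12 of the 36 genes were above 100 RPKM and 4 below 10 RPKM (NDUFB8, SDHA, NDUFV2 and NDUFA9). Within complex I the highest per length was NDUFV1, which binds the flavin that takes electrons from NADH, and within complex II it was SDHB, the iron-sulfur subunit. These ranks depend on the 1 transcript used per gene. That of SDHC had 13566 bases and that of SDHB 1153, while SDHC had 97422 counts over the 12 libraries and SDHB 24451. NDUFA9, among the genes below 10 RPKM, was scaled by 8363 bases.

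Levels of some genes are uncertain because near-identical copies or overlapping loci could take or give reads. NDUFV2 had 1632 counts over the 12 libraries while its pseudogene NDUFV2P1 had 1262. SDHA, the flavoprotein of complex II, had 4501 counts, against 7093 for SDHAP1, 2485 for SDHAP3 and 6473 for SDHAP4. NDUFB8 had 1540 counts, and a locus annotated over it on the same strand (AL133352.1) had 0. Reads that could have gone to these copies make the levels of NDUFV2 and SDHA the least certain of the list. NDUFS1, NDUFB8 and NDUFA2 each overlap a gene on the opposite strand (EEF1B2, HIF1AN and IK), and whether the counting used strand is not stated in the labels. The same holds for NDUFS3, with 23433 counts against 95995 for CELF1, and for ATP5PB, with 92204 against 25474 for WDR77. Others with such a neighbour include COX4I1 (EMC8), ATP5F1A (HAUS1), NDUFA1 (RNF113A), NDUFB3 (FAM126B) and SDHD (TIMM8B).

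**Figure D1:**
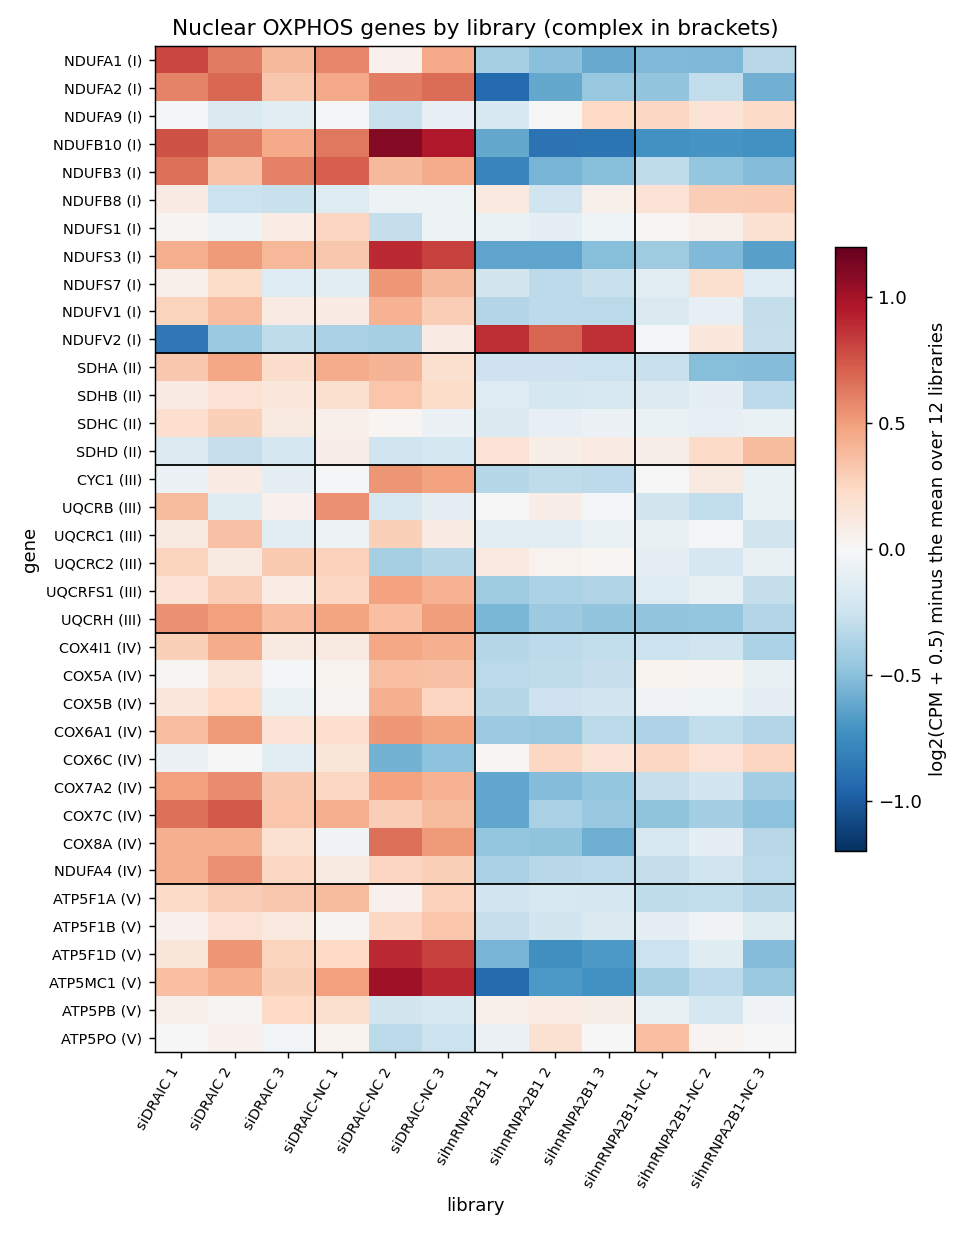
Level of each of the 36 genes in each of the 12 libraries, as log2(CPM + 0.5) minus the gene's own mean over the 12 libraries (red above, blue below), ordered by complex. The 6 libraries of the DRAIC experiment stand mostly above those of the hnRNPA2B1 experiment, and NDUFV2 is highest in the 3 sihnRNPA2B1 libraries.

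In the libraries labelled siDRAIC no gene of the 36 passed the threshold (adjusted p below 0.05, edgeR) against siDRAIC-NC, where 0.713% of all 15986 genes tested did (0.582% higher, 0.131% lower). DESeq2 also called none. ATP5MC1 had the only unadjusted p below 0.05 among them, and the lowest adjusted p was 0.348. Log2 fold changes ran between -0.49 and 0.34, with 12 above 0 and 24 below; their median was -0.06, against -0.005 over all genes tested. With 1 library left out the median ran between -0.14 (without siDRAIC replicate 2 or siDRAIC-NC replicate 1) and 0.01 (without siDRAIC replicate 3). For 25 of the 36 the approximate 95% interval of the fold change lay within 1.5-fold either way; for the other 11 it reached past that. The levels of the 3 libraries of each group did not overlap for 1 gene on the higher side (SDHC) and 2 on the lower side (SDHB and ATP5MC1), that is 2.78% and 5.56% of the 36, against 9.75% and 5.86% of all genes tested. In bulk RNA, fewer cells with a transcript and less of it per cell cannot be told apart, here and in what follows.

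In complex I, NDUFV2, the iron-sulfur partner of NDUFV1, had 1.63, 2.34 and 2.62 CPM in siDRAIC libraries, against 2.44, 2.43 and 3.63 CPM in siDRAIC-NC libraries. The groups overlapped, with a log2 fold change of -0.39 ± 0.31 (edgeR adjusted p = 0.708). In complex II, SDHC, a membrane anchor of succinate dehydrogenase, had 249, 263 and 232 CPM in siDRAIC libraries and 225, 219 and 206 CPM in siDRAIC-NC libraries. All 3 siDRAIC values were above the control values, with a log2 fold change of 0.17 ± 0.15 (edgeR adjusted p = 0.736). In complex III, CYC1 had 322, 360.3 and 314 CPM in siDRAIC libraries, against 334, 487 and 472 CPM in siDRAIC-NC libraries. The first control library lay among the siDRAIC values and the other two above them, with a log2 fold change of -0.41 ± 0.19 (edgeR adjusted p = 0.473). UQCRC2, a core protein of the same complex, showed the mirror pattern, at 153, 137 and 159 CPM in siDRAIC libraries and 154, 96.5 and 100.4 CPM in siDRAIC-NC libraries (log2 fold change 0.34 ± 0.18, edgeR adjusted p = 0.524).

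In complex IV, COX5A, a subunit on the matrix side of cytochrome c oxidase, had 115, 128 and 113 CPM in siDRAIC libraries and 117, 147 and 146 CPM in siDRAIC-NC libraries. The groups overlapped through the first control library, with a log2 fold change of -0.23 ± 0.17 (edgeR adjusted p = 0.689). In complex V, ATP5MC1, which encodes the c subunit of the proton-driven rotor, had 87.1, 91.2 and 82.5 CPM in siDRAIC libraries, against 95.4, 137 and 127 CPM in siDRAIC-NC libraries. Every siDRAIC value was below every control value, with a log2 fold change of -0.49 ± 0.19 (edgeR adjusted p = 0.348). A fit blocked on replicate number, which paired the libraries of this experiment, put ATP5MC1 alone of the 36 past the threshold (log2 fold change -0.47, edgeR adjusted p = 0.0236). In that fit 8.78% of all genes tested passed, 5.20% higher and 3.58% lower.

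Other genes were followed here because they passed in sihnRNPA2B1 libraries; none passed in siDRAIC libraries. NDUFV1 had 209.5, 225 and 186 CPM in siDRAIC libraries and 186, 232 and 213 CPM in siDRAIC-NC libraries (log2 fold change -0.05 ± 0.17, edgeR adjusted p = 0.954). NDUFS1 had 126, 118 and 132 CPM in siDRAIC libraries and 148, 102 and 119 CPM in siDRAIC-NC libraries (log2 fold change 0.01 ± 0.16, edgeR adjusted p = 0.987). Both complex I genes thus overlapped between the groups, with estimates near 0. UQCRFS1, the Rieske protein of complex III, had 129, 142 and 122 CPM in siDRAIC libraries and 137, 161 and 154 CPM in siDRAIC-NC libraries (log2 fold change -0.22 ± 0.17, edgeR adjusted p = 0.681). UQCRB, of the same complex, had 83.3, 57.7 and 66.4 CPM in siDRAIC libraries and 93.7, 55.7 and 59.3 CPM in siDRAIC-NC libraries (log2 fold change -0.02 ± 0.20, edgeR adjusted p = 0.985). In UQCRB the first control library was far above the other two, with the siDRAIC values between the lowest and the highest control.

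Complex IV gave the same picture. COX5B had 86.4, 92.6 and 74.4 CPM in siDRAIC libraries and 80.4, 106 and 93.8 CPM in siDRAIC-NC libraries (log2 fold change -0.17 ± 0.18, edgeR adjusted p = 0.802). COX8A had 75.8, 75.6 and 63.8 CPM in siDRAIC libraries and 54.5, 88.7 and 80.3 CPM in siDRAIC-NC libraries (log2 fold change -0.09 ± 0.21, edgeR adjusted p = 0.928). COX7A2 had 79.7, 83.6 and 70.8 CPM in siDRAIC libraries and 67.1, 79.0 and 75.3 CPM in siDRAIC-NC libraries (log2 fold change 0.06 ± 0.17, edgeR adjusted p = 0.95). The groups overlapped in all 3, and for COX8A the first control library was the lowest of the 6. In complex V, ATP5F1B had 1406, 1533 and 1470.2 CPM in siDRAIC libraries and 1383, 1615 and 1712 CPM in siDRAIC-NC libraries (log2 fold change -0.12 ± 0.16, edgeR adjusted p = 0.842). ATP5F1D had 94.97, 125 and 104 CPM in siDRAIC libraries and 102, 160.5 and 152 CPM in siDRAIC-NC libraries (log2 fold change -0.39 ± 0.22, edgeR adjusted p = 0.553). ATP5PB had 215, 209.8 and 242 CPM in siDRAIC libraries and 234, 176 and 180.2 CPM in siDRAIC-NC libraries (log2 fold change 0.16 ± 0.15, edgeR adjusted p = 0.778). These overlapped as well, and of the 3 only ATP5PB had an estimate above 0.

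The first siDRAIC-NC library stood apart from the other two. Among the 36 genes its level minus the mean of the other two control libraries, on the log2 scale, ran between -0.63 for COX8A and 0.70 for UQCRB. The Pearson correlation of this difference with transcript GC content was -0.73 across the 36 genes (-0.55 across 16886 genes tested). Such a correlation was not confined to that library. For siDRAIC replicate 2 against the rest of its group it was 0.56 (0.55 across the 16886). For sihnRNPA2B1-NC replicates 2 and 3 it was 0.56 and -0.51 (0.31 and -0.33). These are correlations across genes that share libraries and base composition, and genes are not replicates. Without siDRAIC-NC replicate 1, the threshold was passed by 4 of the 36, 3 lower and 1 higher. Of 16535 genes tested 6.26% passed in that fit (3.23% lower, 3.03% higher). CYC1 was then lower (log2 fold change -0.59, edgeR adjusted p = 0.0257), as were ATP5MC1 (log2 fold change -0.67, edgeR adjusted p = 0.018) and ATP5F1D (log2 fold change -0.60, edgeR adjusted p = 0.0421), and UQCRC2 was higher (log2 fold change 0.54, edgeR adjusted p = 0.0348). Across the 36 genes the siDRAIC fold changes themselves had a correlation of -0.54 with GC content, against 0.02 across all genes tested. The part of GC content in these differences was not tested.

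**Figure D2:**
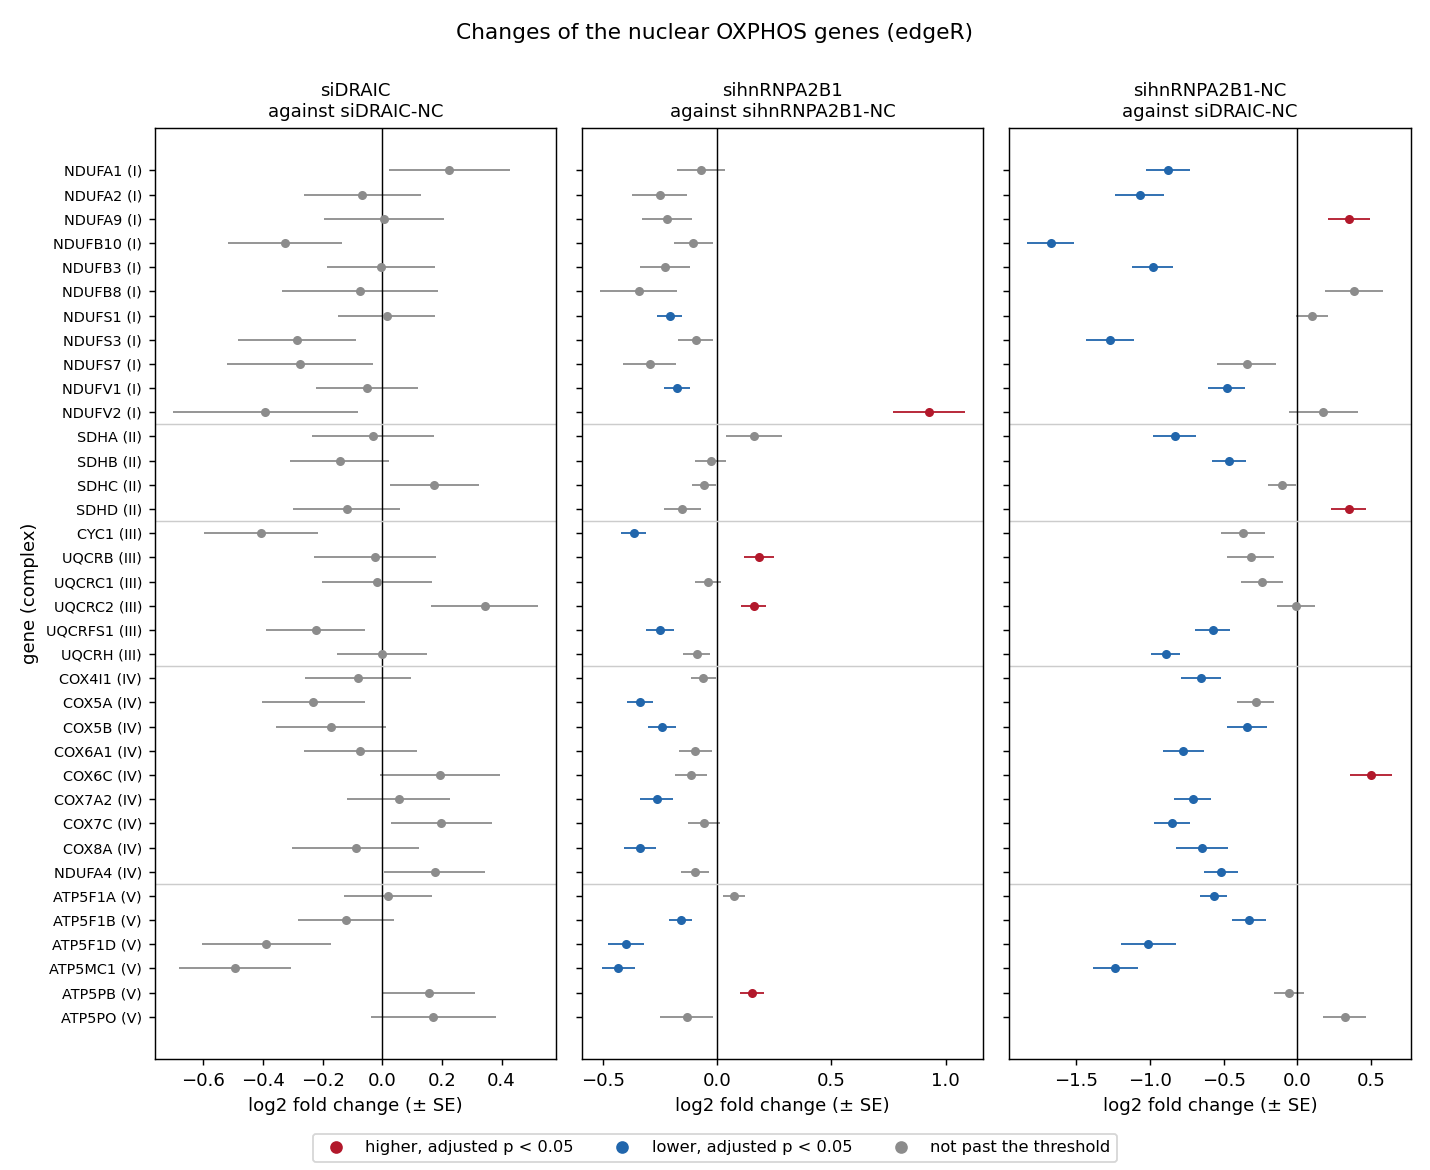
Log2 fold change (edgeR, ± SE) of each of the 36 genes in 3 comparisons, ordered by complex, with genes past the threshold in red (higher) or blue (lower). None is past it in siDRAIC libraries, 4 higher and 11 lower are in sihnRNPA2B1 libraries, and 3 higher and 21 lower are between the control groups; the horizontal scales differ.

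In sihnRNPA2B1 libraries 15 of the 36 genes passed the threshold against sihnRNPA2B1-NC: 11 were lower and 4 higher. Among all 15710 genes tested 30.4% passed, 15.4% lower and 15.1% higher, so the share of the 36 that was lower (30.6%) was above the background and the share that was higher (11.1%) below it. Changes were small apart from that of NDUFV2. Called decreases ran between -0.43 and -0.16 on the log2 scale, and the median over the 36 was -0.12, against 0.01 over all genes tested. For 34 of the 36 the approximate 95% interval lay within 1.5-fold either way; the exceptions were NDUFV2 and NDUFB8. All 15 called genes had groups that did not overlap. In all, 6 of the 36 were separated on the higher and 13 on the lower side (16.7% and 36.1%), against 23.7% and 18.3% of all genes tested.

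Complex I held the largest change of the list and it was upward. NDUFV2 had 6.63, 5.77 and 6.57 CPM in sihnRNPA2B1 libraries, against 3.31, 3.71 and 2.697 CPM in sihnRNPA2B1-NC libraries. Every sihnRNPA2B1 value was above every control value, with a log2 fold change of 0.93 ± 0.16 (edgeR adjusted p = 4.13e-05), that is 1.90-fold higher. Its pseudogene NDUFV2P1 averaged 1.61 CPM in sihnRNPA2B1 libraries and 2.29 CPM in sihnRNPA2B1-NC libraries, the other direction. Whether reads were divided differently between NDUFV2 and this copy in the groups was not tested, so the size of the change is uncertain. NDUFV1, the partner of NDUFV2 in the NADH-oxidising module, had 136, 140.3 and 139 CPM in sihnRNPA2B1 libraries, against 154, 163 and 142 CPM in sihnRNPA2B1-NC libraries, and was lower (log2 fold change -0.18 ± 0.06, edgeR adjusted p = 0.0211). NDUFS1, the large iron-sulfur subunit of that module, had 117, 115 and 119 CPM in sihnRNPA2B1 libraries and 126, 129 and 141 CPM in sihnRNPA2B1-NC libraries, and was lower (log2 fold change -0.21 ± 0.06, edgeR adjusted p = 0.00512). Within this module 1 gene thus rose and 2 fell. The other 8 subunits of complex I did not pass, and their estimates ran between -0.34 (NDUFB8) and -0.07 (NDUFA1). For NDUFB8 (log2 fold change -0.34 ± 0.17, edgeR adjusted p = 0.126) and the iron-sulfur subunit NDUFS7 (log2 fold change -0.30 ± 0.12, edgeR adjusted p = 0.0524) the sihnRNPA2B1 values lay below all control values all the same.

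No gene of complex II passed, by edgeR or DESeq2, and none had an unadjusted p below 0.05. SDHA had 8.07, 8.08 and 8.002 CPM in sihnRNPA2B1 libraries and 7.92, 6.63 and 6.59 CPM in sihnRNPA2B1-NC libraries. The groups did not overlap, yet the gene missed the threshold (log2 fold change 0.16 ± 0.12, edgeR adjusted p = 0.343), and the pseudogenes named above make its level uncertain. SDHB, SDHC and SDHD had estimates of -0.03, -0.06 and -0.15.

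Complex III was split. CYC1, the heme protein that passes electrons to cytochrome c, had 267, 274 and 271 CPM in sihnRNPA2B1 libraries, against 338, 364 and 318 CPM in sihnRNPA2B1-NC libraries. It was lower in every library, with a log2 fold change of -0.36 ± 0.06 (edgeR adjusted p = 8.42e-06), the lowest p of the list. UQCRFS1, the Rieske iron-sulfur protein, had 85.9, 88.8 and 89.5 CPM in sihnRNPA2B1 libraries and 104, 109 and 94.7 CPM in sihnRNPA2B1-NC libraries, and was lower (log2 fold change -0.25 ± 0.06, edgeR adjusted p = 0.00245). UQCRC2 rose instead, with 138, 131 and 129 CPM in sihnRNPA2B1 libraries and 118, 111 and 119.6 CPM in sihnRNPA2B1-NC libraries (log2 fold change 0.16 ± 0.05, edgeR adjusted p = 0.0252). UQCRB, a small subunit named for binding ubiquinone, also rose, with 63.7, 67.4 and 63.0 CPM in sihnRNPA2B1 libraries and 54.8, 52.1 and 60.4 CPM in sihnRNPA2B1-NC libraries (log2 fold change 0.18 ± 0.06, edgeR adjusted p = 0.032). Both electron-carrying proteins of the complex on this list thus fell while a core protein and UQCRB rose, and UQCRC1 (log2 fold change -0.04 ± 0.06) and the hinge protein UQCRH (-0.09 ± 0.06) did not pass.

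In complex IV all 9 estimates were below 0 and 4 genes passed. COX5A had 90.9, 92.2 and 94.2 CPM in sihnRNPA2B1 libraries, against 118, 117 and 107 CPM in sihnRNPA2B1-NC libraries, and was lower (log2 fold change -0.34 ± 0.06, edgeR adjusted p = 5.15e-05). COX8A, a small membrane subunit, had 40.5, 40.03 and 37.3 CPM in sihnRNPA2B1 libraries, against 49.2, 51.6 and 44.5 CPM in sihnRNPA2B1-NC libraries (log2 fold change -0.34 ± 0.07, edgeR adjusted p = 0.000601). For both the 3 sihnRNPA2B1 values lay below all control values. COX5B, which binds zinc, had 61.6, 65.7 and 67 CPM in sihnRNPA2B1 libraries and 76.0, 75.9 and 72.6 CPM in sihnRNPA2B1-NC libraries (log2 fold change -0.24 ± 0.06, edgeR adjusted p = 0.00355). COX7A2 had 36.5, 39.2 and 40.8 CPM in sihnRNPA2B1 libraries and 46.5, 47.99 and 42.4 CPM in sihnRNPA2B1-NC libraries (log2 fold change -0.26 ± 0.07, edgeR adjusted p = 0.0061). COX4I1, the most abundant per length, was not among the called genes (log2 fold change -0.06 ± 0.05, edgeR adjusted p = 0.438), nor were COX6A1, COX6C, COX7C and NDUFA4, with estimates between -0.11 (COX6C) and -0.06 (COX7C). COX4I1 had 236, 241 and 245 CPM in sihnRNPA2B1 libraries and 251, 253 and 230.0 CPM in sihnRNPA2B1-NC libraries, which overlapped.

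In complex V, 3 genes fell and 1 rose. ATP5MC1 had 35.4, 41.7 and 40.6 CPM in sihnRNPA2B1 libraries, against 51.2, 54.3 and 49.6 CPM in sihnRNPA2B1-NC libraries, and showed the largest decrease of the list (log2 fold change -0.43 ± 0.07, edgeR adjusted p = 3.83e-05). ATP5F1D, the delta subunit of the central stalk, had 58.4, 51.4 and 53.2 CPM in sihnRNPA2B1 libraries and 71.8, 77.9 and 59.9 CPM in sihnRNPA2B1-NC libraries (log2 fold change -0.40 ± 0.08, edgeR adjusted p = 0.000254). In both the groups stood apart, though for ATP5F1D the highest sihnRNPA2B1 value and the lowest control value were close. ATP5F1B had 1118, 1162 and 1204 CPM in sihnRNPA2B1 libraries and 1255, 1319 and 1227 CPM in sihnRNPA2B1-NC libraries, and was lower (log2 fold change -0.16 ± 0.05, edgeR adjusted p = 0.0148). ATP5PB, a subunit of the stalk that holds the catalytic head still, was higher, with 214, 217 and 215 CPM in sihnRNPA2B1 libraries and 193, 177 and 199 CPM in sihnRNPA2B1-NC libraries (log2 fold change 0.15 ± 0.05, edgeR adjusted p = 0.0264). The alpha subunit ATP5F1A (log2 fold change 0.07 ± 0.05, edgeR adjusted p = 0.278) and the stalk subunit ATP5PO (log2 fold change -0.13 ± 0.12, edgeR adjusted p = 0.416) did not pass.

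The calls differed in how firmly they stood. When 1 of the 6 libraries was left out at a time, 9 of the 15 genes kept their call in all 6 fits, and COX7A2 lost it in 1. NDUFV1, ATP5F1B and UQCRC2 lost it in 4 fits, and UQCRB and ATP5PB in 5, so NDUFV2 was the only increase that held in each. The count of called genes was 9 without sihnRNPA2B1 replicate 1 and 10 without sihnRNPA2B1 replicate 2 or without sihnRNPA2B1-NC replicate 2. In 1 fit of all 12 libraries, which gives all groups a common estimate of the spread, no gene of the 36 passed and 283 of 17091 genes did; NDUFV2 came closest of the 36, with an edgeR adjusted p of 0.0568. The median coefficient of variation of the 36 genes was 3.86% in sihnRNPA2B1 and 6.20% in sihnRNPA2B1-NC libraries, but 8.72% in siDRAIC and 12.7% in siDRAIC-NC libraries. Called decreases had a median transcript GC content of 52.0% and called increases 44.3%, and the fold change had a correlation of -0.31 with GC content across the 36 genes (-0.13 across all genes tested); its part was not tested.

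**Figure D3:**
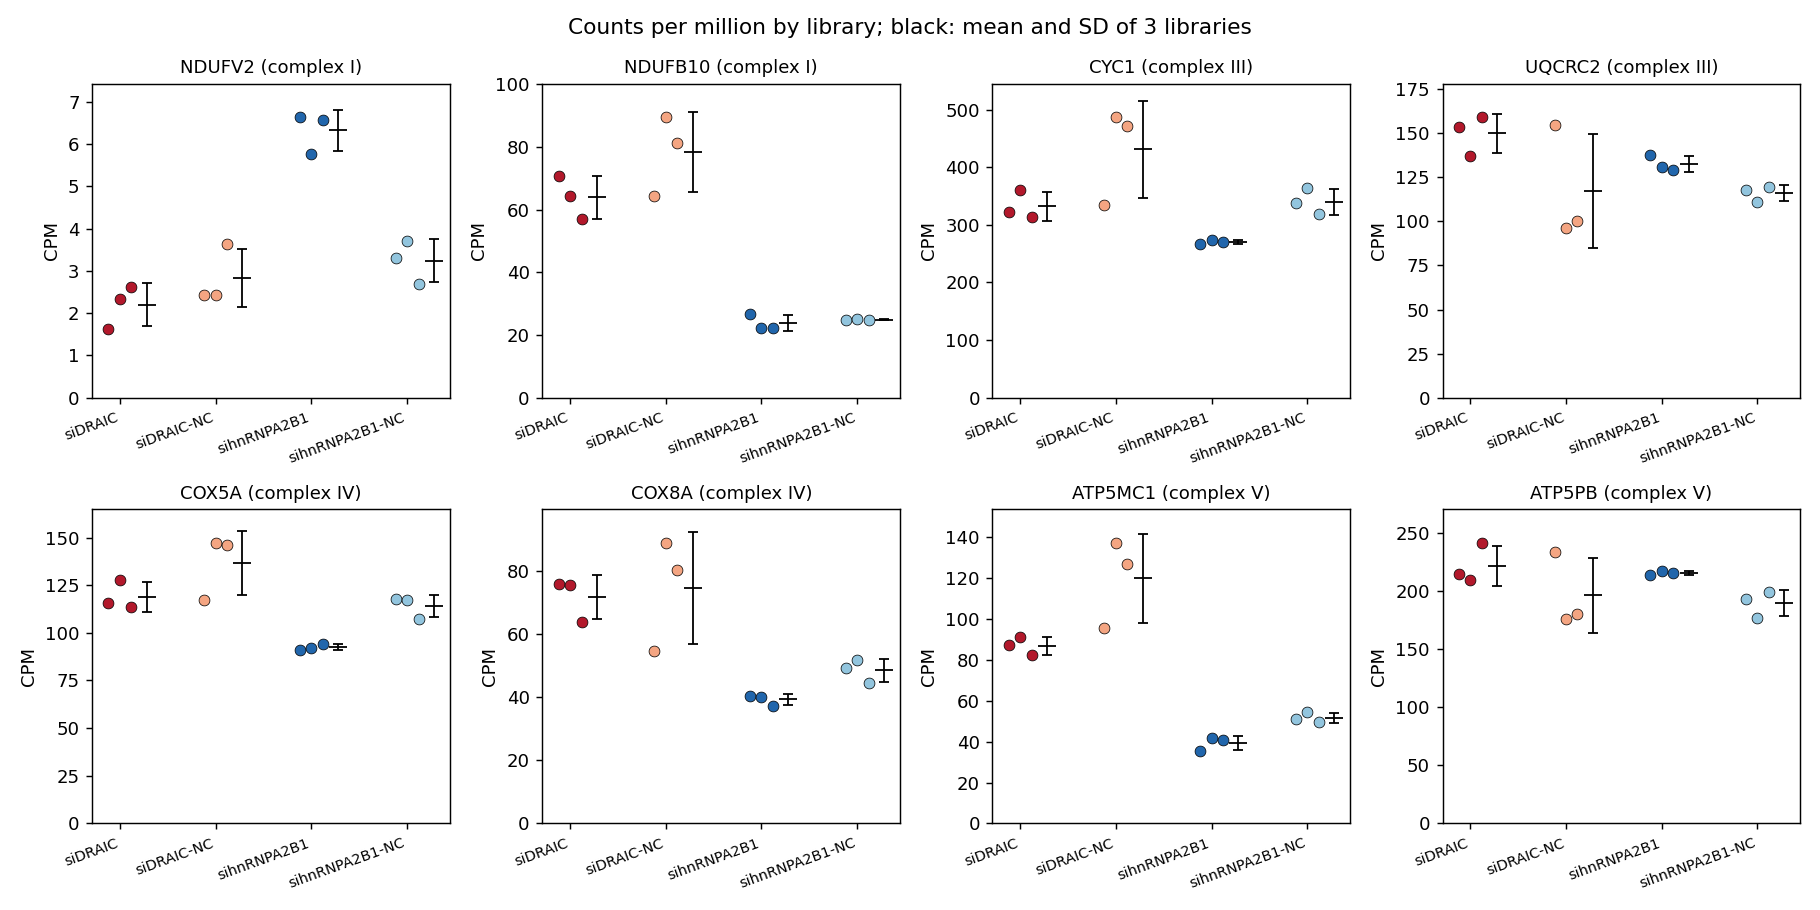
CPM of 8 of the genes in each library (points), with the mean and SD of the 3 libraries of each group in black; every vertical axis starts at 0. NDUFV2 is highest in sihnRNPA2B1 libraries, NDUFB10 separates the experiments but not the siRNA groups, and the first siDRAIC-NC library lies apart from the other two for CYC1, UQCRC2, COX8A and ATP5PB.

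The siRNA comparisons share no library, so their values can be set side by side. Without NDUFV2 the fold changes in siDRAIC and in sihnRNPA2B1 libraries had a Pearson correlation of 0.60 across 35 genes, against 0.38 across the 14962 genes tested in both; with NDUFV2 it was 0.18 across 36. The Spearman correlation over all 36 was 0.44, against 0.35 over the 14962. Estimates had the same sign for 24 of the 36, against 9457 of the 14962. Of the 36 genes, 21 had estimates below 0 in both comparisons (58.3%), against 31.7% of the 14962 genes. Taken singly, 24 were below 0 in siDRAIC and 30 in sihnRNPA2B1 libraries. With most genes below 0 in each, the count below 0 in both does not show that the changes went together. The points share base composition, which went with the fold changes in both experiments. The test of the difference between the changes (siDRAIC minus siDRAIC-NC, minus sihnRNPA2B1 minus sihnRNPA2B1-NC) called none of the 36, where 0.211% of 17091 genes were called. NDUFV2 had the lowest p of the 36, the only one below 0.05 before adjustment, with a difference of -1.36 ± 0.33 on the log2 scale (edgeR adjusted p = 0.146). It passed in 4 of the alternatives: with DESeq2 (adjusted p = 0.0199), with no filter on low counts (edgeR, 0.0291), with the replicate block (0.0289) and without siDRAIC-NC replicate 1 (0.0328).

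In sihnRNPA2B1-NC libraries 24 of the 36 genes passed the threshold against siDRAIC-NC libraries, 21 lower and 3 higher, where 51.6% of 17091 genes passed, 26.6% lower and 25.0% higher. The libraries of both groups did not overlap for 22 of the 36 on the lower and 3 on the higher side, against 29.2% and 28.6% of all genes tested. The share of the 36 that was lower was 58.3%, and their median log2 fold change was -0.47, against -0.02 over all genes tested. Renal epithelial markers were lower in sihnRNPA2B1-NC libraries too: 5 of the 6 tested passed, with a median log2 fold change of -1.02, and the mean sum of all 8 was 0.598 times that in siDRAIC-NC libraries. The sum of the 3 hepatocyte markers was 0.185 times as high, but 2 of the 3 averaged below 1 CPM in every group. Of the 2 tested, 1 was lower (log2 fold change -2.47) and 1 higher (3.40), so the sum does not describe the list as a whole. The part of renal or hepatocyte markers in the values of the 36 genes was not tested. The control group and the experiment cannot be told apart here, since each control group stands in its own experiment. These values share control libraries with the siRNA comparisons above and are given on their own.

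Among the 36 genes the largest differences between the controls were in complex I. NDUFB10, an accessory subunit of the membrane arm, had 24.8, 25.1 and 24.9 CPM in sihnRNPA2B1-NC libraries, against 64.5, 89.5 and 81.3 CPM in siDRAIC-NC libraries (log2 fold change -1.68 ± 0.16, edgeR adjusted p = 5.69e-07). NDUFS3, a core subunit, had 35.2, 32.8 and 30 CPM in sihnRNPA2B1-NC libraries and 59.7, 88.6 and 84.2 CPM in siDRAIC-NC libraries (log2 fold change -1.27 ± 0.16, edgeR adjusted p = 1.11e-05). The siRNA libraries of each experiment stood with their controls, at 26.9, 22.3 and 22.3 CPM for NDUFB10 in sihnRNPA2B1 libraries and 70.6, 64.2 and 56.9 CPM in siDRAIC libraries. For NDUFS3 they had 30.4, 30.4 and 33.1 CPM in sihnRNPA2B1 libraries and 64.5, 67.7 and 62.8 CPM in siDRAIC libraries. Between the controls both genes were lower with no overlap, and so were NDUFA2 (-1.07), NDUFB3 (-0.98), NDUFA1 (-0.88) and NDUFV1 (-0.48). NDUFA2 had 12.7, 14.5 and 11.8 CPM in sihnRNPA2B1-NC libraries and 24.7, 27.7 and 28.7 CPM in siDRAIC-NC libraries. NDUFB3 had 13.5, 11.97 and 11.5 CPM in sihnRNPA2B1-NC libraries and 27.8, 22.1 and 22.9 CPM in siDRAIC-NC libraries. NDUFA1 had 10.8, 10.7 and 12.5 CPM in sihnRNPA2B1-NC libraries and 23.99, 16.4 and 22.0 CPM in siDRAIC-NC libraries. These are 3 small accessory subunits, and in none did the control groups overlap.

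In the other complexes the same direction prevailed. SDHA had 7.92, 6.63 and 6.59 CPM in sihnRNPA2B1-NC libraries, against 13.3, 12.95 and 11.1 CPM in siDRAIC-NC libraries (log2 fold change -0.83 ± 0.14, edgeR adjusted p = 0.000197). UQCRH, the hinge protein of complex III, had 79.0, 79.4 and 85.9 CPM in sihnRNPA2B1-NC libraries, against 153, 141 and 156 CPM in siDRAIC-NC libraries (log2 fold change -0.89 ± 0.10, edgeR adjusted p = 3.17e-06). COX7C, a small subunit of complex IV, had 51.2, 54.2 and 51.0 CPM in sihnRNPA2B1-NC libraries and 97.5, 88.6 and 93.7 CPM in siDRAIC-NC libraries (log2 fold change -0.85 ± 0.12, edgeR adjusted p = 3.82e-05). None of the 3 overlapped. In complex V, ATP5MC1 was furthest apart (log2 fold change -1.24 ± 0.15, edgeR adjusted p = 9.11e-06), with the library values given above. ATP5F1A had 437, 438 and 423 CPM in sihnRNPA2B1-NC libraries and 703, 559.7 and 654 CPM in siDRAIC-NC libraries (log2 fold change -0.57 ± 0.09, edgeR adjusted p = 8.69e-05), again without overlap. The 3 that were higher were COX6C (0.50), NDUFA9 (0.35) and SDHD (0.35). COX6C kept its call in all 13 alternative fits, SDHD in 7 and NDUFA9 (edgeR adjusted p = 0.0498) in 3. The control groups overlapped for SDHD. NDUFB8 had control groups that did not overlap on the higher side but was not called (log2 fold change 0.38 ± 0.19, edgeR adjusted p = 0.111). Across the 36 genes this fold change had a correlation of 0.45 with the log2 length of the transcript (0.05 across all genes tested) and of -0.37 with GC content (-0.19 across all genes tested); their part was not tested.

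Summed over the 36 genes, the levels were 5515, 5849 and 5379 CPM in siDRAIC libraries, against 5434, 5924 and 6014 CPM in siDRAIC-NC libraries, and these overlapped. The sums were 4031, 4138 and 4192 CPM in sihnRNPA2B1 libraries, against 4368, 4479 and 4233 CPM in sihnRNPA2B1-NC libraries, all 3 below the lowest control value. The mean sum in sihnRNPA2B1 libraries was 0.945 times that of its controls. By complex that ratio was 0.910 for complex I, 0.984 for II, 0.931 for III, 0.918 for IV and 0.963 for V.

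The mRNAs that mitochondrial DNA encodes went the other way. Their sum over 13 genes was 64750.0, 62282 and 63663 CPM in sihnRNPA2B1 libraries, against 50979, 52015 and 52071 CPM in sihnRNPA2B1-NC libraries, with no overlap. In that comparison 11 of the 13 rose (84.6%, against 15.1% of all genes tested) and none fell, with a median log2 fold change of 0.18, against 0.01 over all genes tested. MT-ND6 (log2 fold change 0.61 ± 0.05, edgeR adjusted p = 3.7e-10) and MT-ND5 (log2 fold change 0.55 ± 0.05, edgeR adjusted p = 3.31e-10), subunits of the proton-pumping arm of complex I, rose most, and MT-CO1, the catalytic core of complex IV, rose too (log2 fold change 0.37 ± 0.04, edgeR adjusted p = 4.83e-08), as did MT-CO2 (log2 fold change 0.25 ± 0.04, edgeR adjusted p = 5.45e-05). In siDRAIC libraries none of the 13 passed with edgeR, 1 (MT-CO1) had an unadjusted p below 0.05, and all 13 estimates were above 0 (median 0.19). Their sums there were 84988, 92607 and 76687 CPM, against 70199, 74105 and 67899 CPM in siDRAIC-NC libraries.

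The ratio of the mitochondrial to the nuclear sum put the siRNA and control libraries apart in both experiments. It was 15.4, 15.8 and 14.3 in siDRAIC libraries, against 12.9, 12.5 and 11.3 in siDRAIC-NC libraries. It was 16.1, 15.1 and 15.2 in sihnRNPA2B1 libraries, against 11.7, 11.6 and 12.3 in sihnRNPA2B1-NC libraries. The mitochondrial sum alone, in CPM, also put siRNA and control libraries apart in both experiments, and the nuclear sum did so only in the hnRNPA2B1 experiment. Every siRNA library was above every control library in the ratio, which does not depend on how libraries are scaled. Reads from nuclear copies of mitochondrial DNA could be split or lost in the counting, so its level is uncertain. Between the controls, 11 of the 13 mitochondrial mRNAs were lower in sihnRNPA2B1-NC libraries (84.6%, against 26.6% of all genes tested), as most of the 36 nuclear genes were, and the ratios of the control groups overlapped.

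**Figure D4:**
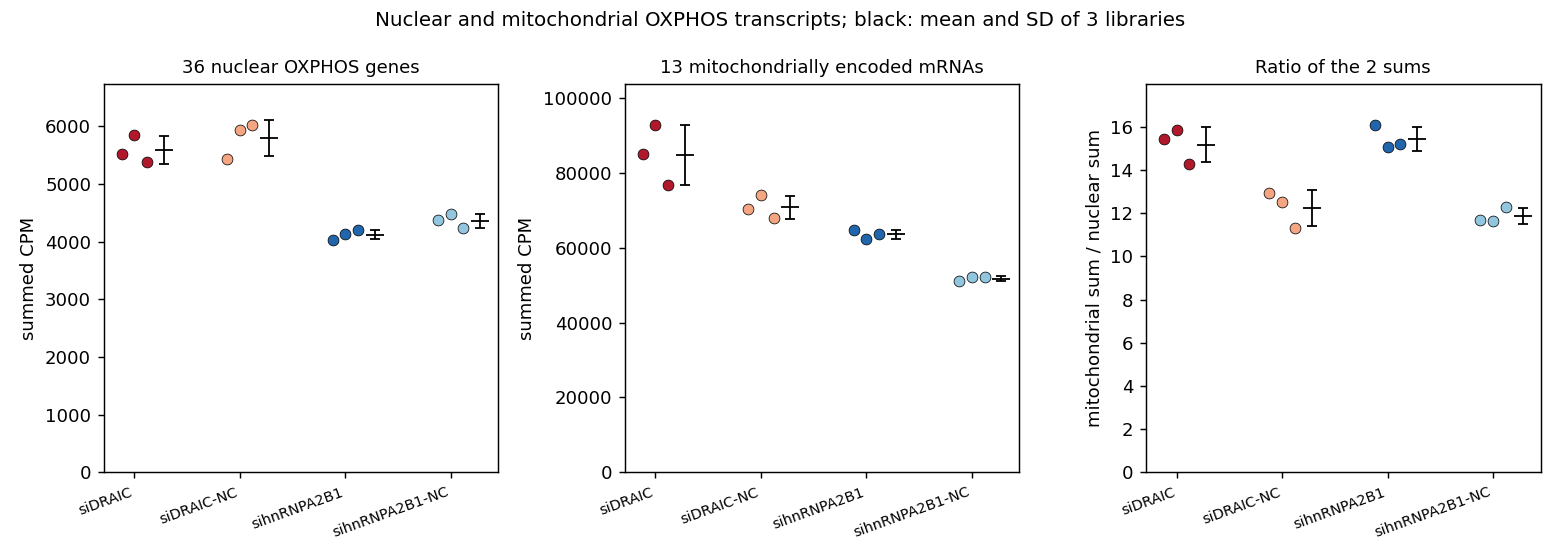
Summed CPM of the 36 nuclear genes, summed CPM of the 13 mitochondrially encoded mRNAs, and the ratio of the second sum to the first, per library (points), with the mean and SD of each group of 3 in black. The nuclear sums overlap between siDRAIC and siDRAIC-NC, while the ratio is above 14 in all 6 siRNA libraries and below 13 in all 6 control libraries.

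Other lists of the pathway, chosen like the 36 with earlier results of these data known, moved as follows in sihnRNPA2B1 libraries; values in parentheses after a gene are log2 fold changes. Their shares are to be read against the 15.4% of all genes tested that fell and the 15.1% that rose. Of 42 further subunits of complexes I to V, 8 fell (19.0%) and none rose, among them NDUFS6 (-0.29), UQCRQ (-0.30), NDUFAB1 (-0.25) and NDUFB7 (-0.24); their median was -0.10. Of 48 assembly factors tested, 4 rose (8.33%) and 3 fell (6.25%). ACAD9 (0.43) and FOXRED1 (-0.35), which help to build complex I, went opposite ways, as did COX11 (0.28), which delivers copper to complex IV, and COX18 (-0.20). Of 15 genes of cytochrome c and coenzyme Q, 1 rose (6.67%) and 2 fell (13.3%): COQ2 (0.33) was higher, and PDSS1 (-0.41) and HCCS (-0.18) were lower. Of 76 mitochondrial ribosomal proteins tested, 23 fell and 6 rose (30.3% and 7.89%), the lowest p-values being those of MRPS16 (-0.34), MRPS18B (-0.33), MRPL21 (-0.37) and MRPL2 (-0.33). Of 25 genes for upkeep of mitochondrial DNA and RNA, 5 rose (20%) and 2 fell (8%). LRPPRC, which stabilises mitochondrial mRNAs (0.20), and the RNA-binding FASTKD2 (0.25) and FASTKD5 (0.26) rose, and TBRG4 (-0.22) fell. The isoforms COX7A2L, UQCRHL and the inhibitor ATP5IF1 did not pass, and 7 other isoforms, NDUFA4L2 and COX4I2 among them, were below the filter on low counts.

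Regulators and neighbouring pathways were mixed, with the same shares of all genes as background. Among 8 regulators of mitochondrial biogenesis tested, 2 rose (25.0%) and 3 fell (37.5%). GABPA (log2 fold change 0.31 ± 0.08, edgeR adjusted p = 0.00581) and GABPB1 (log2 fold change 0.33 ± 0.08, edgeR adjusted p = 0.0022), the subunits of the ETS factor named above, rose. ESRRA, a nuclear receptor of respiratory genes, had 105, 106 and 112 CPM in sihnRNPA2B1 libraries, against 135, 139.8 and 126 CPM in sihnRNPA2B1-NC libraries, and fell (log2 fold change -0.35 ± 0.06, edgeR adjusted p = 3.6e-05), as did the coactivator PPARGC1B (-0.41). NRF1 (-0.12) and YY1 (0.11), named here because their cores were searched, did not pass. Of the 8 genes with a promoter window that fell in sihnRNPA2B1 libraries, 3 held the ETS core and none the YY1 core; of the 3 that rose, none held the ETS core and 2 the YY1 core; of the 18 that did not pass, 7 held the ETS core and 6 the YY1 core. Of 21 genes of the citric acid cycle and pyruvate entry, 5 rose (23.8%) and 1 fell (4.76%), with IDH2 (0.47) and SUCLA2 (0.39) higher and IDH3B (-0.41) lower. Of 21 genes of glycolysis and lactate, 5 rose (23.8%) and 6 fell (28.6%); the lactate exporter SLC16A3 (-1.01), PKM (-0.47) and ENO1 (-0.37) fell and the transporter SLC16A1 (0.34) rose. In siDRAIC libraries no gene of any of these lists passed with edgeR. Estimates there leaned to one side all the same in some of them. Of 77 mitochondrial ribosomal proteins tested, 72 had estimates below 0 (median -0.27), against 8077 of all 15986 genes tested. Only 7 of the 77 had an unadjusted p below 0.05, against 1713 of the 15986. For 15 the siDRAIC values lay below all control values (19.5%, against 5.86% of all genes tested). Of the 25 genes for upkeep of mitochondrial DNA and RNA, 22 had estimates below 0 (median -0.19), with 1 separated lower. Among the 21 genes of glycolysis and lactate 17 were below 0 (median -0.17), 4 had an unadjusted p below 0.05, and 6 were separated lower and 1 higher. Among the 21 genes of the citric acid cycle and pyruvate entry 17 were below 0 (median -0.07), with 2 separated lower and 2 higher. The counts of separated genes in these lists are to be read against all genes tested, of which 5.86% were separated lower and 9.75% higher.

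Marker sums of other cell types differed between some groups. The 3 fibroblast markers summed to 10.5 to 18.1 CPM in siDRAIC libraries, against 2.55 to 6.53 CPM in siDRAIC-NC libraries, and to 3.61 to 4.27 CPM in sihnRNPA2B1 libraries, against 2.47 to 3.28 CPM in sihnRNPA2B1-NC libraries. The 3 hepatocyte markers, of which 2 averaged below 1 CPM in every group, summed to 170 to 199 CPM in siDRAIC libraries, against 206 to 356 CPM in siDRAIC-NC libraries. Their sum was 29.1 to 31.8 CPM in sihnRNPA2B1 libraries, against 52.5 to 56.7 CPM in sihnRNPA2B1-NC libraries. The 8 renal epithelial markers summed to 1577 to 2032 CPM in siDRAIC libraries, against 1638 to 1979 CPM in siDRAIC-NC libraries, and to 1027 to 1087 CPM in sihnRNPA2B1 libraries, against 1066 to 1138 CPM in sihnRNPA2B1-NC libraries. These sums hide opposite changes: of the 6 tested in sihnRNPA2B1 libraries, 2 were called higher (log2 fold change up to 1.92) and 2 lower. That is 33.3% each, against 15.1% and 15.4% of all genes tested. In siDRAIC libraries 1 of the 6 renal markers tested was called higher (16.7%) and 0 lower, with a highest estimate of 0.88. Of the 2 fibroblast markers tested there, 1 was called higher (50%), with estimates of 1.74 and 1.91. Among all genes tested in that comparison 0.582% were called higher and 0.131% lower. The part of all these markers in the values of the 36 genes was not tested.

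**Figure D5:**
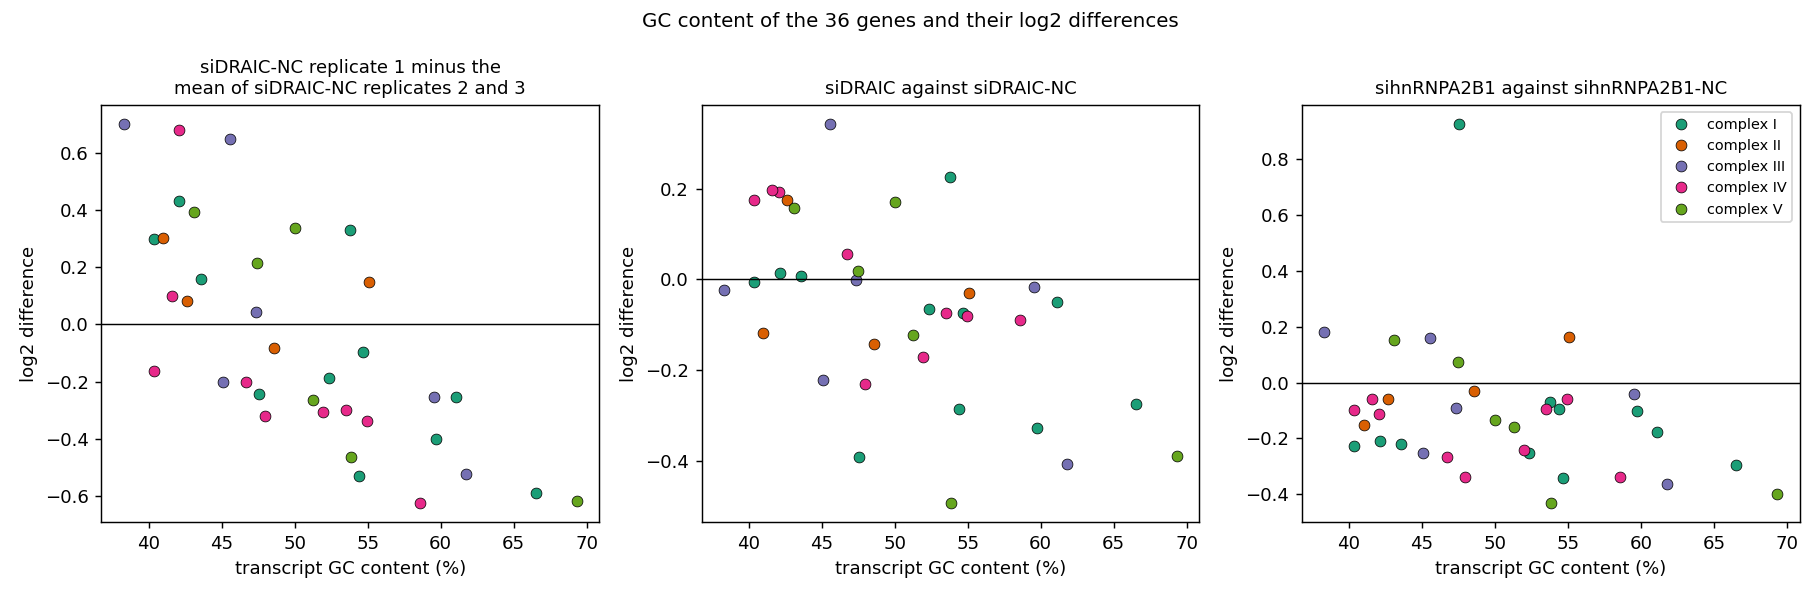
GC content of the transcript of each of the 36 genes (horizontal, in percent) against 3 log2 differences (vertical): the first siDRAIC-NC library minus the mean of the other two, siDRAIC against siDRAIC-NC, and sihnRNPA2B1 against sihnRNPA2B1-NC, with colours for the complexes. The correlations across the 36 genes are -0.73, -0.54 and -0.31, and NDUFV2 stands alone near 0.93 in the third panel.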

How the data were processed

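The values are read counts per Ensembl gene ID as deposited, in 1 table per experiment with 6 libraries each. Per the submitters' processing notes, the tools were fastp 0.23.2, STAR 2.7.10a, StringTie and DESeq2 on hg38; not given in the sources used here are the counting program, its annotation and its use of strand. Library totals were 30798303 to 42760528 counts, and all 60617 rows name a gene ID. The members and all other lists were chosen with earlier results of these data known. Genes were filtered with filterByExpr (minimum count 10), scaled by TMM and tested with edgeR 4.0.16 (robust quasi-likelihood; limma 3.58.1, R 4.3.3), without a block; Benjamini-Hochberg adjusted p below 0.05 over all genes tested was a call. Each siRNA comparison used its own 6 libraries; the difference of the changes and the comparison of the controls used all 12. Standard errors were taken from the fold change and its F statistic, so 95% intervals are approximate. The intervals used the multiple of the normal distribution, with no allowance for the few libraries, and are therefore too narrow. That of CYC1 in siDRAIC libraries (-0.78 to -0.03) left out 0, with an unadjusted edgeR p of 0.0528. The counts of genes with an interval within 1.5-fold may be too high for the same reason. RPKM used 1 GENCODE 29 transcript per gene, and so did GC content and length. The fits were tested on simulated data with 200 changed genes. Alternatives were RLE scaling, DESeq2 1.42.0, other filters, a replicate block, mitochondrial genes left out, 1 fit of all libraries, and each library left out in turn. Same-numbered siDRAIC and siDRAIC-NC libraries deviated together from their group means (r = 0.49, 0.23 and 0.28), so their numbers may pair them. This was read from these same counts, and the labels do not state it. The main fit leaves such a pairing out, and the fit with the replicate block is given beside it. Library values are given for the called members (the 10 with the smallest p where there were more), the highest per length and the most changed in each complex; other called members of the sihnRNPA2B1 comparison were added after their values were seen. From other lists, up to 4 called genes with the smallest p are named; 1 such gene is not reported here.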

Additional observations from a re-analysis of the deposited data

How the results depend on the processing

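In siDRAIC libraries the 0 of 36 genes called became 1 with the replicate block and 0 to 4 when 1 library was left out, the 4 without siDRAIC-NC replicate 1. Over all genes 114 were called there, against 392 with DESeq2, 520 with no low-count filter, 61 with a filter of 1 CPM in at least 3 libraries, 1404 with the replicate block, 67 with mitochondrially encoded genes left out, 665 in 1 fit of all 12 libraries, and 9 to 1035 with 1 library left out. In sihnRNPA2B1 libraries the 15 of 36 became 0 and the 4781 of all genes 283 in 1 fit of all 12 libraries, and 9 to 17 of the 36 with 1 library left out. Same-numbered libraries of that experiment did not deviate together (r = -0.01, -0.02 and -0.05), and the replicate block called 12 of the 36 there. For the difference of the changes the 0 of 36 became 1 (NDUFV2) with DESeq2, with no low-count filter and with the replicate block, and 0 to 1 with 1 library left out; of all genes 36 were called, against 194, 263, 258 and 9 to 349. Between the controls every count stayed within 1.5 times (20 to 28 of the 36 with 1 library left out). For 52 values of single genes among the 36, a selection of those printed above, the alternatives gave 681 values, of which 595 kept direction and side of the threshold, 13 passed newly, 57 no longer passed (41 in the sihnRNPA2B1 comparison, 16 between the controls) and 16 changed sign. All 16 were in the siDRAIC comparison, in genes never called there: NDUFS1 was at -0.00122 with RLE scaling and with DESeq2, -0.00801 with no low-count filter, -0.00519 with mitochondrially encoded genes left out and -0.0165 in 1 fit of all 12 libraries. With 1 library left out the log2 fold changes were -0.10 to 0.12 for NDUFS1, -0.17 to 0.0291 for NDUFV1, -0.16 to 0.20 for UQCRB, -0.0467 to 0.13 for COX7A2 and -0.30 to 0.057 for COX8A. The causes were not tested.

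NDUFV2, SDHA and NDUFB8 had the fewest counts of the 36 (1632, 4501 and 1540 over the 12 libraries). Their standard errors in the siDRAIC comparison were 0.310, 0.205 and 0.261. ATP5F1D, with 42041 counts, had 0.215 there, so few counts did not always go with the larger error. The part of depth was not tested. The median standard error of the log2 fold change over the 36 genes was 0.19 in the siDRAIC comparison and 0.07 in the sihnRNPA2B1 comparison, so a lack of calls in the first does not show a lack of change.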
